A study of Mus musculus with 3 samples.

Results

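The neurotrophic genes described here were 9 of the 19165 genes in the deposited single-cell table of mouse back skin, namely the neurotrophins Ntf3 and Bdnf, the Gdnf family ligands Gdnf, Nrtn and Artn, and the receptors Ngfr, Ntrk2, Gfra1 and Gfra2. They were chosen by name, 5 ligands and 4 receptors, and all 9 had unique molecular identifier (UMI) counts in the table. Earlier results of these data were known when they were chosen, so member shares set beside those of all genes are descriptions. The skin came from male C57BL/6 mice without a transgene or treatment, at embryonic stages E13.5 and E16.5 and on the day of birth (P0), and each stage was 1 droplet library of pooled animals. E13.5 and E16.5 skin was digested with trypsin and P0 skin with collagenase IV, so stage, library and digestion cannot be told apart. With 1 library per stage there is no replicate error. Every interval below is an exact 95% interval (Poisson for summed UMIs, Clopper-Pearson for shares) that covers counting error alone, and no test between groups was made.

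Neurotrophins are small secreted dimers that keep neurons alive and guide their endings into targets such as the skin. Ntrk receptors are their high-affinity kinases, with Ntrk2 (TrkB) taking Bdnf and Ntrk3 (TrkC) taking Ntf3. Ngfr (p75NTR) binds all mature neurotrophins with lower affinity, and it also binds their precursors. Gdnf family ligands bind a lipid-anchored co-receptor of the Gfra family, Gdnf mainly Gfra1, Nrtn mainly Gfra2 and Artn mainly Gfra3, and the complex then signals through the kinase Ret or through Ncam1. In skin, hair follicles are a target of sensory nerve endings, and immature Schwann cells along the nerves carry Ngfr. The dermal condensate (DC) is the cluster of fibroblasts under the hair placode that later becomes the dermal papilla (DP).

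The table held 16235 cells, with 5962, 5208 and 5065 at E13.5, E16.5 and P0, where the series description states 15086. The libraries held between 46599806 and 66239195 UMIs, and the median cell had between 6797 and 11021. Between 32 and 44 cell barcodes were shared by any pair of libraries. Cells were clustered without these genes, and clusters were then named by markers other than these genes. The naming steps were set after clusters had been seen, and a group is called X-like for this reason. The groups that carry most of what follows were Schwann-like (152, 109 and 97 cells), DC-like (467 cells at E16.5), DP-like (139 cells at P0) and other dermal-like cells (2078, 2762 and 2490). The 7 Schwann markers summed to 1600, 2069 and 2460 CPM (UMIs of a gene or list per 1000000 UMIs of the group) in the Schwann-like cells and to between 6.86 and 26.5 CPM in other dermal-like cells. Free RNA was present, since globin RNA summed to at least 2927 CPM in every group at E13.5, at least 929 at E16.5 and at least 240 at P0. Levels are in CPM, and since reads came from transcript 3′ ends, CPM are not divided by gene length.

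For the 3 genes that stood highest above the other dermal-like cells in DC-like cells (Nrtn, Ntf3 and Ngfr, below), the RefSeq promoters are shown first, because these members were high together in 1 dermal group. Each runs from 250 bases before to 50 after the annotated start on GRCm38.p6 and is written 5′ to 3′ on the minus strand, the strand of all 3 genes. Capitals mark matches on either strand to GGGCGG (the GC box), CTTTGA or CTTTGT (short forms of the Lef/Tcf motif), TATAAA and TGACGTCA (the cAMP response element).
Nrtn, chr17:56757499-56757798: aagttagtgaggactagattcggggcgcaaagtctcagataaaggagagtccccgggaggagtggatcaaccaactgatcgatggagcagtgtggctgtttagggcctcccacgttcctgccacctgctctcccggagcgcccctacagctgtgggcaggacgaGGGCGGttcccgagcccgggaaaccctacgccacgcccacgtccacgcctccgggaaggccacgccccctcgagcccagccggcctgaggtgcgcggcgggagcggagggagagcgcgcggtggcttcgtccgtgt
Ngfr, chr11:95587649-95587948: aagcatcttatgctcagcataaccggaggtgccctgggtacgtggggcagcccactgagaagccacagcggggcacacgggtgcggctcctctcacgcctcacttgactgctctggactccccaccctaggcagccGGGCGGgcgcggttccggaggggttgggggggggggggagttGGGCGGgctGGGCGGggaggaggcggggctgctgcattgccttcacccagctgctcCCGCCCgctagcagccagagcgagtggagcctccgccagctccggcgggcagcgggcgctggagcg
Ntf3, chr6:126166695-126166994: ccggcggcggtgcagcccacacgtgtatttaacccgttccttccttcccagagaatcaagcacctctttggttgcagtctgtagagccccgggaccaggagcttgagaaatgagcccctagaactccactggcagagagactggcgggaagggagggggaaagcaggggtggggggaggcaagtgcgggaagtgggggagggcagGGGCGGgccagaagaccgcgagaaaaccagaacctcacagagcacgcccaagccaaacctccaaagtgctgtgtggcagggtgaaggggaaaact
Ntf3, chr6:126164911-126165210: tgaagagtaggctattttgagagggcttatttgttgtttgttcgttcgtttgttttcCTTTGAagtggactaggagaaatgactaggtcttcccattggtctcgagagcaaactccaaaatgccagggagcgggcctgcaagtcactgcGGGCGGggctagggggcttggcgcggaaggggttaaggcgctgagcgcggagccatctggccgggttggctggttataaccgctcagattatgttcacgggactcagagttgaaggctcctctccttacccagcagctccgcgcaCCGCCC
All 4 windows held GGGCGG, which 35.7% of the 32851 RefSeq promoters of this length hold, and 1 of them, the second Ntf3 start, held CTTTGA, which 16% hold. No match to CTTTGT (18.7% of all), TATAAA (13.6%) or TGACGTCA (1.79%) lay in these letters. They were GC-rich, with 71.7% G or C for Ngfr, 66.7% for Nrtn and 61% and 55.7% for Ntf3. A match is a description of the letters and not a bound site.

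Nrtn (neurturin, chr17:56751325-56757530, minus strand) had the most UMIs of the 5 ligands at every stage, with 1593, 4322 and 3596 in the libraries. Its highest level was in DC-like cells at E16.5, at 374 CPM (356 to 393, from 1621 UMIs), so that 467 of the 5208 cells of that library held 37.5% of its Nrtn. The 3 DC-like sub-clusters had 423, 401 and 322 CPM, all above each of the other dermal-like sub-clusters of that stage. DP-like cells at P0 had 62.6 CPM (48.4 to 79.7), no more than the 74.4 CPM (70.2 to 78.7) of the other dermal-like cells. Within these P0 cells the level was uneven, with 291 CPM (261 to 324) in 179 cells led by Sost, Tagln, Acta2 and Lrrc15, and 225 CPM (173 to 286) in 51 cells led by Heyl. The first of these sub-clusters has contractile and tendon genes (Tagln, Tnmd) among its 10 leading genes, where Nrtn stands too, so its name as dermal-like is uncertain. The second had 1 marker of another class and 0 dermal markers among its 10 leading genes. Its marker score for DP was 1.43, so its name is uncertain too.

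Nrtn was also an epithelial transcript, and its place there differed by stage. At E13.5 other epithelial-like cells had 212 CPM (192 to 234) and suprabasal-like cells 111 CPM (86.9 to 140). The highest E13.5 sub-clusters were 40 cells with 364 CPM (310 to 425) and 42 cells with 323 CPM (279 to 371), the first led by Mgarp, Krt7 and Upk1b and the second by Ovol2, Gabrp and Upk1a among others, while 60 cells led by Dkk4, a placode gene, had 35.5 CPM (21.7 to 54.8). At E16.5 periderm-like cells had 105 CPM (88.5 to 123), follicle or matrix-like cells 55.3 CPM and other epithelial-like cells 27.8 CPM (24.4 to 31.5). Periderm is the outer layer that is shed before birth, but this group had marker scores of 4.28 for periderm and 4.27 for suprabasal cells. Krt1 and Krt10, which also led the P0 suprabasal-like cells, were among its leading genes, so its name is uncertain. At P0 the other epithelial-like cells had 127 CPM (121 to 134). That value ranged from 21.8 CPM in 215 cells led by Ccer2 and globins to 165 CPM in 128 cells led by Krt79, an upper follicle keratin, and 380 CPM (339 to 425) in 86 cells led by Acta1, Sfrp1 and Tbx1. The last group has the muscle genes Acta1, Mylpf and Tnnc2 among its leading genes. Endothelial-like cells, taken as a group that should lack Nrtn, stayed at 9.58, 7.2 and 9.99 CPM.

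Ntf3 (neurotrophin-3, chr6:126101412-126166910, minus strand) was highest in DC-like cells too. DC-like cells had 78.7 CPM (70.6 to 87.6, 341 UMIs), and the 3 sub-clusters gave 91.4, 79.9 and 74.3 CPM with overlapping intervals. DP-like cells at P0 came next in the order of all groups at 50.3 CPM (37.7 to 65.8), and the 96 cells led by Plac8, Bmp3 and Bmp7 had 68.1 CPM (49.5 to 91.5). Other dermal-like cells had 13.6, 11.7 and 19.2 CPM at E13.5, E16.5 and P0. Among epithelial-like cells at P0 it had 22.7 CPM (20.1 to 25.5) in the other epithelial-like and 3.68 CPM (1.9 to 6.43) in follicle or matrix-like cells.

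Bdnf (chr2:109674700-109727007, plus strand) had a different place. Its exons share 896 bases with an antisense gene on the other strand, and reads from either cannot be told apart where counting ignores strand. The highest group was follicle or matrix-like cells at E16.5, at 45.2 CPM (38.3 to 53), where other epithelial-like cells had 1.14 CPM (0.546 to 2.09). Within the follicle group, 98 cells led by Ccer2, Lhx2 and Pthlh had 67.8 CPM (56.1 to 81.3) and 126 cells led by Dkk4 had 21.4 CPM (14.9 to 29.7). By P0 the follicle or matrix-like cells had 5.83 CPM (3.51 to 9.1), and the epithelial sub-clusters with most Bdnf were the 86 cells led by Acta1 (70.3 CPM, 53.3 to 91.1) and the 128 cells led by Krt79 (23.1 CPM, 17.9 to 29.4). These were also high in Nrtn. Dermal Bdnf was even between groups, at 22.2, 18.8 and 17.1 CPM in other dermal-like cells, 20.3 CPM in DC-like and 21.8 CPM in DP-like cells. An exception was 346 P0 cells led by Dpp4 and Grem1, with 53.6 CPM (43.9 to 64.8).

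Gdnf (chr15:7810846-7837575, plus strand) and Artn (artemin, chr4:117926162-117929763, minus strand) were scarce, with 202, 330 and 44 UMIs of Gdnf and 15, 50 and 177 of Artn in the libraries. Over all groups both were highest in Schwann-like cells. Gdnf had 30.3 CPM (22.5 to 39.9, 50 UMIs) in these cells at E13.5, 26.8 CPM (18.9 to 37, 37 UMIs) at E16.5 and 6.91 CPM (1.88 to 17.7) at P0 from 4 UMIs, where pericyte-like cells had 8.17 CPM (4.47 to 13.7). Artn ran the other way, with 1 UMI at E13.5, 21 CPM (14.1 to 30.2, 29 UMIs) at E16.5 and 60.5 CPM (42.1 to 84.1, 35 UMIs) at P0. The P0 level lay above every other group, the next being E16.5 Schwann-like cells and then P0 other epithelial-like cells at 6.39 CPM (5.06 to 7.97). Dermal Gdnf at E16.5 was low but spread over many cells, since 231 UMIs at 7.28 CPM in other dermal-like cells made up 70% of the library's Gdnf.

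**Figure D1:**
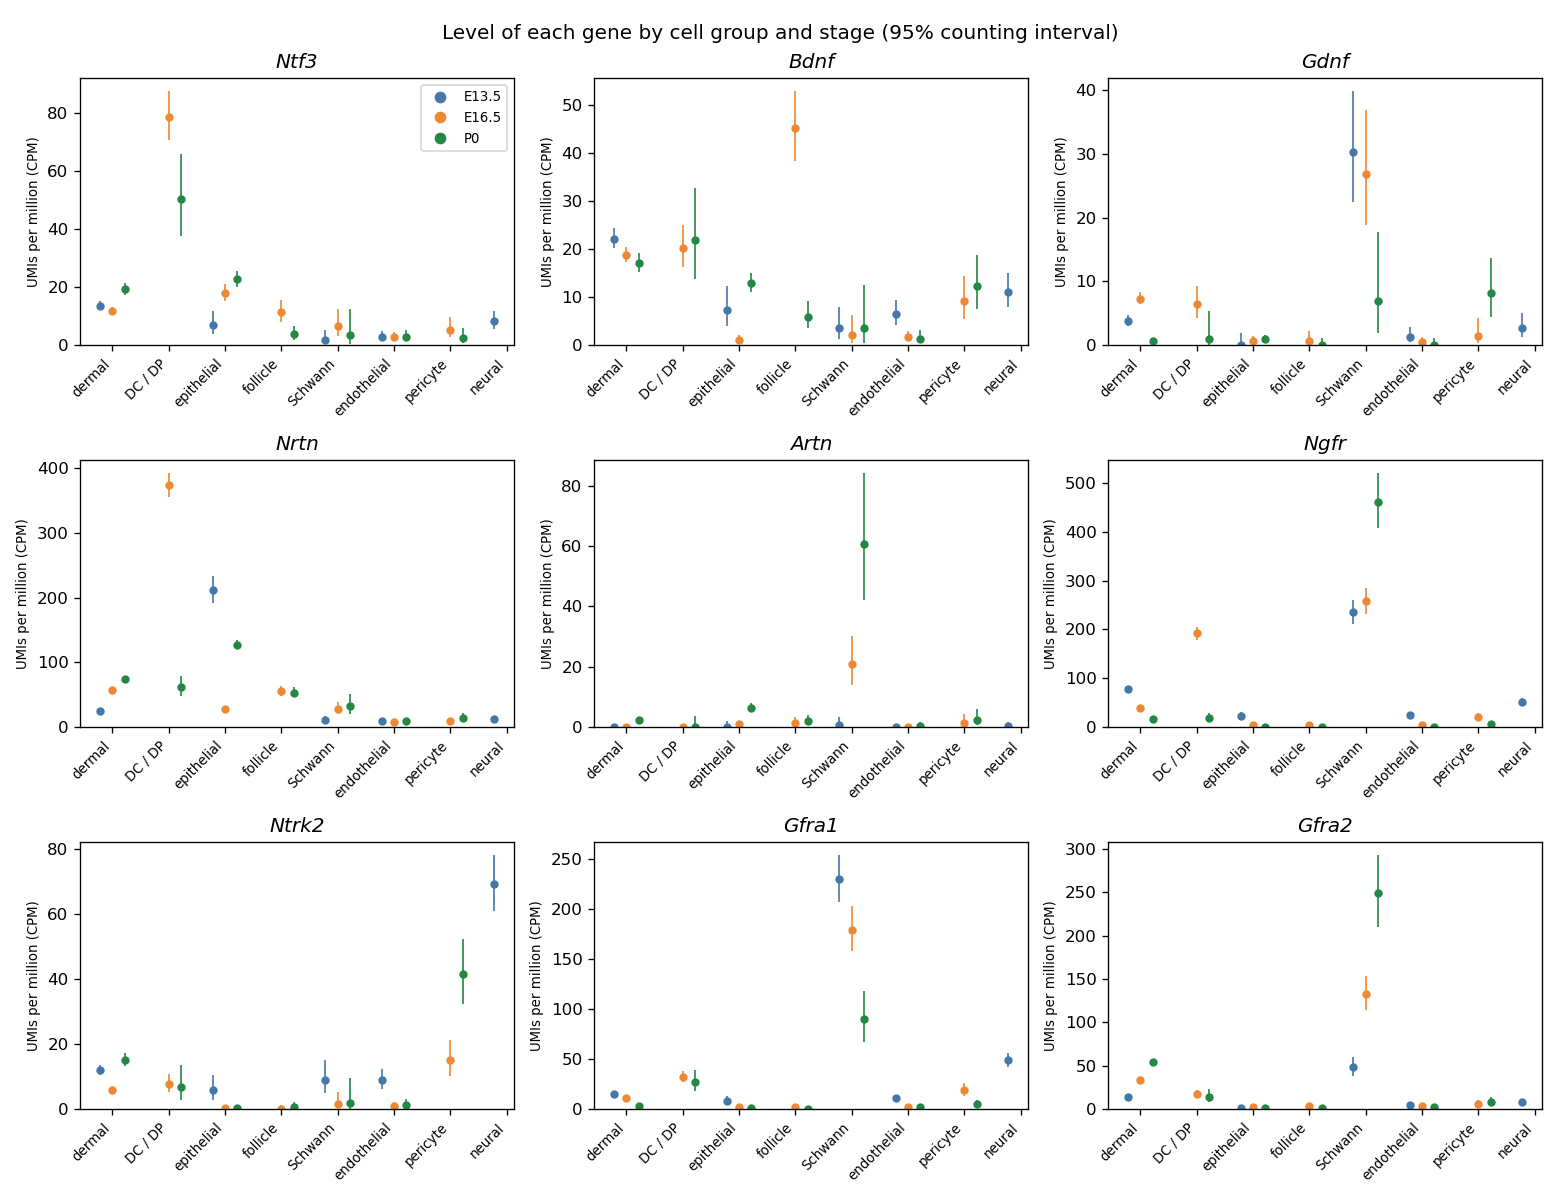
CPM (y axis, linear from 0) of each of the 9 genes in 8 cell groups (x axis), coloured by stage. Points are summed UMIs of a group and bars are exact 95% Poisson intervals, and "DC / DP" is DC-like at E16.5 and DP-like at P0. Nrtn and Ntf3 peak in DC-like cells (374 and 78.7 CPM), while Ngfr, Gfra1, Gfra2, Gdnf and Artn peak in Schwann-like cells.

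Among the receptors, Ngfr (chr11:95568818-95587735, minus strand) was highest in Schwann-like cells at each stage, with 235 CPM (212 to 259) at E13.5, 257 CPM (231 to 286) at E16.5 and 462 CPM (408 to 520) at P0. The E13.5 and E16.5 values do not differ beyond their intervals, and the P0 value lies above both. DC-like cells followed at 192 CPM (179 to 205), and 58 E16.5 cells left as mixed and led by Acta2 had 233 CPM (202 to 267). Other dermal-like cells had 78.6 CPM (74.7 to 82.6) at E13.5, 38.5 CPM (36.4 to 40.8) at E16.5 and 17.4 CPM (15.4 to 19.5) at P0, and DP-like cells had 18 CPM (10.9 to 28.1). These dermal levels are given side by side with no comparison between stages, because 2 of 13, 4 of 15 and 5 of 14 dermal-like sub-clusters held more markers of another class than of their own among their leading genes. In the P0 dermis Ngfr ranged from 0.505 CPM in the 346 cells led by Dpp4 to 76.1 CPM (47.7 to 115) in the 51 cells led by Heyl. Schwann-like cells held 44.1% of the Ngfr UMIs of the P0 library against 11.8% and 12.5% at E13.5 and E16.5.

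Gfra1 (chr19:58235604-58455909, minus strand) also followed the Schwann-like cells, at 230 CPM (207 to 254), 180 CPM (158 to 204) and 89.9 CPM (67.1 to 118) from E13.5 to P0. The step from E13.5 to E16.5 was -0.35 on the log2 scale (-0.58 to -0.12), but 0.03 with cells weighted equally and 0.00 with the marker gate, and in both of these E16.5 was the highest group. It shares 416 exon bases with an antisense gene on the other strand. Neural-like cells at E13.5 had 48.6 CPM (41.8 to 56.3), and 91 of its 180 UMIs there came from 104 cells with Igfbpl1, Tubb3 and Tlx3 among their leading genes, at 154 CPM (124 to 190). In the dermis its level differed between sub-clusters. At E16.5, 148 cells led by C1qtnf3, Aspn and Angptl1 had 120 CPM (103 to 139), against 0 UMIs in the 52 cells led by Tac1 (interval up to 8.13 CPM). Both of these sub-clusters had 1 marker of another class and 0 dermal markers among their 10 leading genes, so their name is uncertain. The Sox2 and Sox18 expressing DC-like sub-cluster of 206 cells had 54.5 CPM (44.5 to 66.2), and at P0 the DP-like sub-cluster of 43 cells led by Serpine2 and Corin had 44.1 CPM (26.1 to 69.6).

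Gfra2 (chr14:70890120-70979838, plus strand) was higher at each later stage in Schwann-like cells, with 48.4 CPM (38.4 to 60.3) at E13.5, 133 CPM (114 to 153) at E16.5 and 249 CPM (210 to 293) at P0. Most of its UMIs at the later stages were dermal. Other dermal-like cells had 13.53, 33.1 and 54.2 CPM from E13.5 to P0, and they held 70.1% and 77% of the Gfra2 UMIs at E16.5 and P0. DC-like and DP-like cells were below them, at 17.3 CPM (13.6 to 21.7) and 14.2 CPM (7.96 to 23.5). The lowest E16.5 dermal-like sub-cluster was the DC-like one with Sox2 and Sox18, at 5.88 CPM (2.94 to 10.5), with the 330 cells led by Kcnk2 next at 6.93 CPM (4.11 to 10.9). The DC-like one with Sox2 and Sox18 also had the highest Nrtn of the dermal-like sub-clusters at that stage, 423 CPM (394 to 454), which overlaps with the next (401 CPM, 346 to 461). Outside the dermis, Gfra2 was at 2.39 to 3.27 CPM in periderm-like, follicle or matrix-like, endothelial-like and other epithelial-like cells of E16.5. Immune-like, pericyte-like and melanocyte-like cells of that stage had 5.42 to 5.98 CPM. Mast-like cells had 13.8 CPM and muscle-like cells 15.65 CPM, from 9 and 6 UMIs.

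Ntrk2 (chr13:58806569-59133970, plus strand) had another pattern from the other 3 receptors. Its highest group was neural-like cells at E13.5, at 69.1 CPM (60.9 to 78.2), followed by cartilage or tendon-like cells at E13.5 (50.8 CPM, 45 to 57.1) and adipocyte-like cells at P0 (45.1 CPM, 30.8 to 63.6), whose intervals overlap. Pericyte-like cells at P0 had 41.4 CPM (32.4 to 52.3). Schwann-like cells had 9.08, 1.45 and 1.73 CPM, from 15, 2 and 1 UMIs. In the P0 dermis 187 cells led by Mfap5, Clec3b and Igfbp6 had 105 CPM (88.7 to 123) and held 149 of the 244 Ntrk2 UMIs of the other dermal-like cells. These cells have the adipocyte gene Fabp4 among their leading genes. At E16.5 the highest dermal-like sub-cluster was the one led by C1qtnf3, which was also highest in Gfra1, at 38.5 CPM (29.3 to 49.6), with an interval that overlaps that of the 38 cells led by Ly6a.

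**Figure D2:**
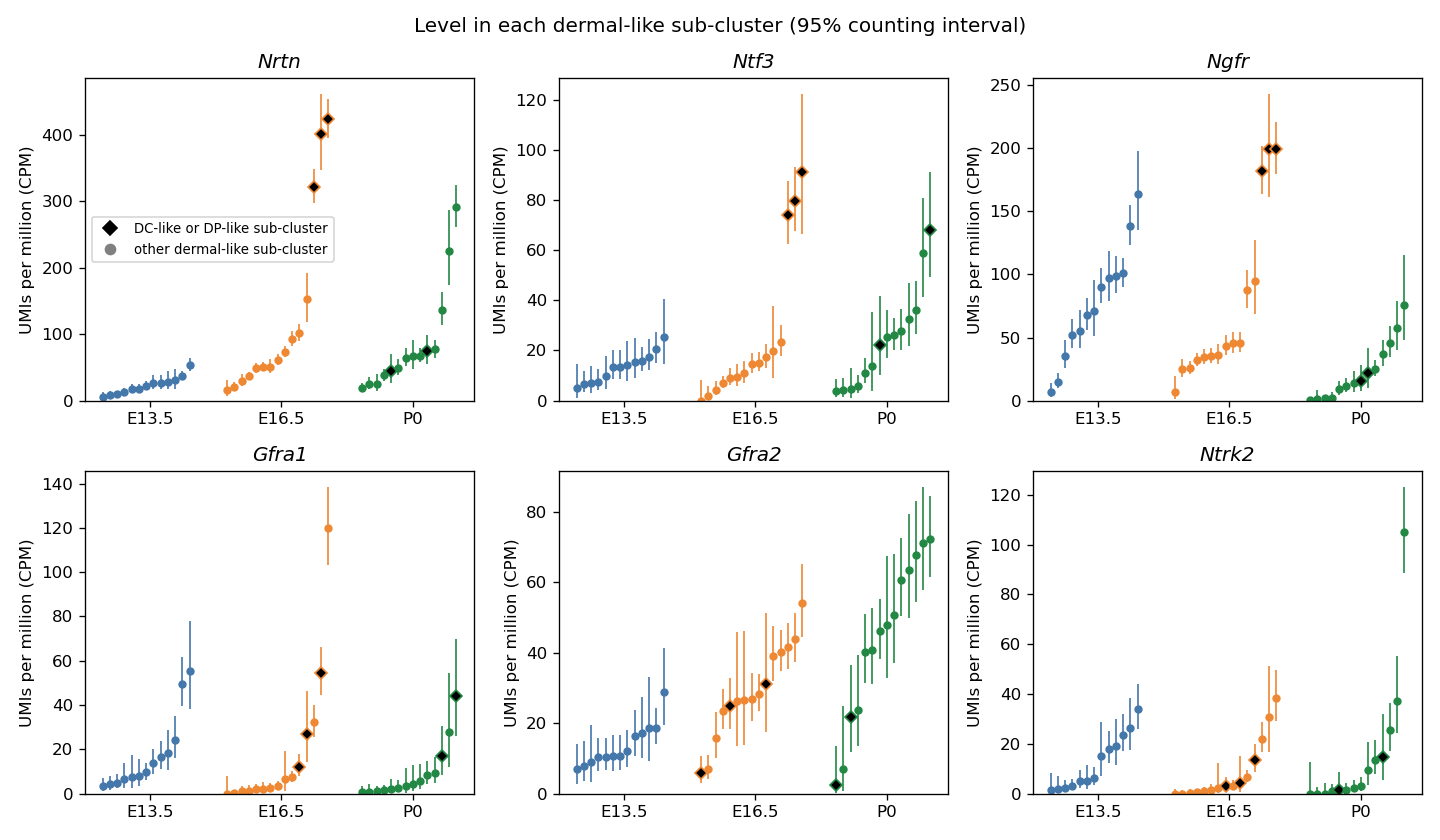
CPM (y axis, linear from 0) of 6 genes in each dermal-like sub-cluster, ordered by level within a stage (x axis). Bars are exact 95% Poisson intervals and black diamonds are DC-like (E16.5) or DP-like (P0) sub-clusters. All 3 DC-like sub-clusters lie above the other E16.5 ones for Nrtn, Ntf3 and Ngfr, and DP-like ones do so for neither Nrtn nor Ngfr.

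The comparison of dermal-like with epithelial-like cells asked on which side of the skin each gene lay. A difference was counted where log2(CPM + 5) differed by at least 1 and the 2 groups held 20 or more UMIs of the gene together. At E13.5, 14.2% of 13172 genes differed by this much, and 4 of the 8 members with enough UMIs did. Ngfr was higher in dermal-like cells by 1.74 on the log2 scale (1.4 to 2.07), Gfra2 by 1.49 (1.02 to 1.78) and Bdnf by 1.37 (0.92 to 1.78), and Nrtn was lower by 2.72 (difference -2.72, -2.88 to -2.55). With cells gated on markers in place of clusters 1 member in place of 4 was past 1. Bdnf was at 0.84 when unnamed cells were counted as epithelial-like, an alternative added after seeing the data. Erythroid-like cells of E13.5 had 13 CPM of Gfra2 (9.24 to 17.8), where other dermal-like cells had 13.53 CPM (11.95 to 15.26). Erythroid-like cells had less Ngfr (48.7 against 78.6 CPM) and less Bdnf (13 against 22.2 CPM). Endothelial-like, immune-like and muscle-like cells had less Gfra2 (5.16, 6.27 and 2.97 CPM). The part of free RNA in the dermal-like levels was not tested. At E16.5, 6 of 8 members were higher in dermal-like cells where 15.7% of genes differed in either direction. They were Ngfr (2.75, 2.56 to 2.93), Gfra2 (2.24, 2.05 to 2.41), Gfra1 (1.37), Gdnf (1.12), Nrtn (1.07, 0.95 to 1.18) and Ntrk2 (1.06). Nrtn there was at 0.98 without called doublets, and in place of 6 members 3 were past 1 with the marker gate and 2 with 10 CPM added. At P0, 3 of 9 were higher, all receptors, with 3.21 for Gfra2 (3.06 to 3.32), 1.93 for Ngfr and 1.86 for Ntrk2, where 17.1% of genes differed. The median of the tested members was 0.78, 1.1 and 0.59 at the 3 stages, against 0.03, 0.06 and -0.05 over all genes tested. Among the 9 members, no ligand but Nrtn was past 1 on the epithelial side at any stage, and the intervals for Ntf3 were 0.22 to 1.08, 0.13 to 0.48 and 0.11 to 0.47.

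Set against the other dermal-like cells, the DC-like cells of E16.5 were higher in 4 of 8 tested members, where 5.51% of 13264 genes differed in either direction, and the members' median was 0.72 against 0.05 over all genes tested. Nrtn had 374 against 56.9 CPM, a log2 difference of 2.61 (2.52 to 2.71). Ntf3 had 78.7 against 11.7 CPM (2.33, 2.15 to 2.5), Ngfr 192 against 38.5 CPM (2.18, 2.05 to 2.3) and Gfra1 32.1 against 11 CPM (1.22, 0.98 to 1.45). Bdnf (0.09, -0.18 to 0.35), Gdnf (-0.1, -0.42 to 0.24) and Ntrk2 (0.22, -0.1 to 0.56) had intervals that span 0, and Gfra2 was at -0.77 (-1.04 to -0.5). The 10 genes of the dissociation response, immediate early and heat shock genes that digestion raises, gave a sum of 1471 CPM in the DC-like group against 1770 CPM in the rest of the dermis, and globins gave 1946 against 1194 CPM. Neural markers, some of which dermal cells also express, summed to 792 and 232 CPM, and their part in the result was not tested.

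The DP-like cells of P0 differed in 3 of 8 tested members where 14% of 12082 genes did, and their median was -0.1 against 0.19 over all genes tested. Gfra1 had 27.5 against 3.53 CPM (1.93, 1.44 to 2.39) and Ntf3 50.3 against 19.2 CPM (1.19, 0.79 to 1.57). Gfra2 was lower, at 14.2 against 54.2 CPM (-1.62, -2.2 to -1.05). Nrtn (-0.23, -0.58 to 0.1) and Ngfr (0.04, -0.52 to 0.59) had intervals around 0. Among the other dermal-like cells were the 51 led by Heyl, which had DP markers raised and high Nrtn and Ngfr (above). The part of this sub-cluster in the Nrtn and Ngfr values was not tested. The Ntf3 value was 0.92 without called doublets, 0.96 with scaling to the median ratio and 0.96 with at least 2500 genes per cell. Dissociation response genes reached a sum of 7762 CPM in the DP-like group against 3898 CPM in the rest of the dermis, neural markers 578 against 178 CPM and endothelial markers 115 against 43.5 CPM, and their part in these values was not tested. The DC-like and DP-like cells come from different libraries and digestions and were named from different marker lists, so their values stand side by side without a comparison.

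**Figure D3:**
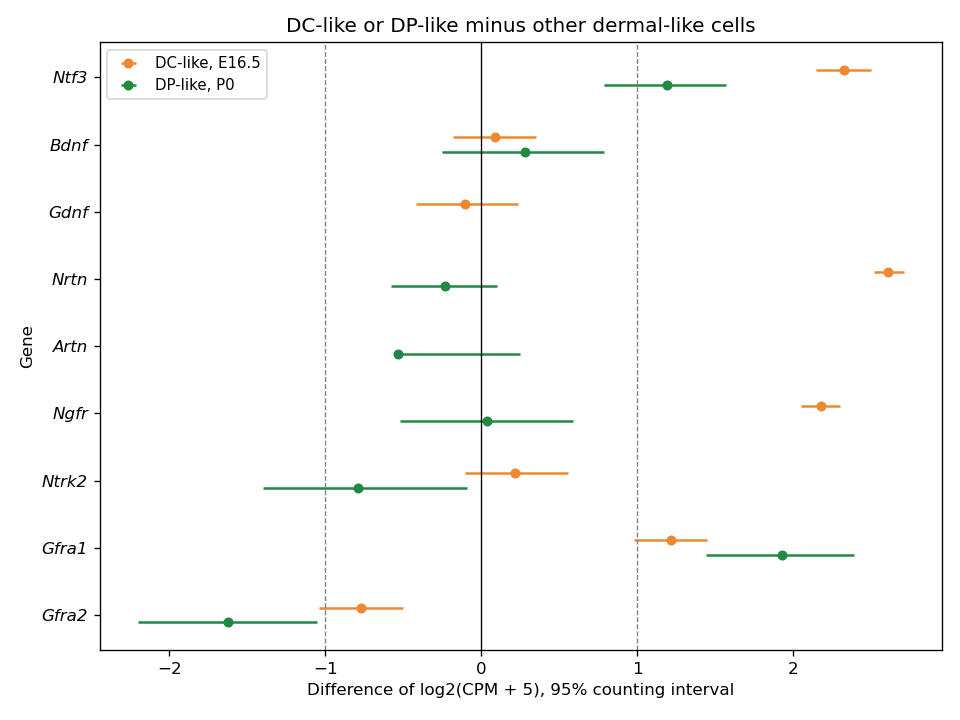
Difference of log2(CPM + 5) (x axis) between DC-like (E16.5) or DP-like (P0) and other dermal-like cells for the members (y axis) with at least 20 UMIs in the compared groups. Bars are 95% counting intervals and dashed lines mark differences of 1 in size. Ntf3 and Gfra1 lie past 1 in both, Nrtn and Ngfr in DC-like cells and Gfra2 below -1 in DP-like cells.

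Schwann-like cells were set against all other cells of the same library. At E13.5, 7 of 8 tested members differed by at least 1, 4 higher and 3 lower, where 6.11% of 15062 genes did, and 4 in place of 7 with 10 CPM added. At E16.5 5 were higher and 2 lower of 9 tested, where 8.89% of genes differed, and at P0 again 5 were higher and 2 lower, where 14.3% did. The members' medians were 0.56, 1.74 and 1.02, against -0.05, 0 and -0.01 over all genes tested. Gfra1 was higher by 3.33 (3.17 to 3.49), 3.68 (3.49 to 3.87) and 3.63 (3.24 to 3.99). Ngfr was higher by 1.97 (1.82 to 2.12), 2.59 (2.43 to 2.75) and 5.24 (5.04 to 5.43), and the other cells had 56.2, 38.5 and 7.37 CPM. Gfra2 gave 1.91, 2.45 and 3.25. Gdnf gave 2.15, 1.74 and 1.02, the last from 4 UMIs and at 0.93 under median ratio scaling, and Artn gave 2.29 at E16.5 and 3.02 at P0. Nrtn was lower in Schwann-like cells at each stage, at -1.22, -1.09 and -1.13. Ntf3 and Bdnf were below 0 at each stage too, with Ntf3 past -1 at E13.5 and P0 and Bdnf at E13.5 and E16.5. Neural markers summed to 320 CPM in E13.5 Schwann-like cells against 437 CPM in the whole library, which includes neural-like cells at 3371 CPM. The other named groups ranged from 103 CPM in suprabasal-like to 333 CPM in erythroid-like cells, with 169 CPM in other dermal-like cells. The part of neural RNA in the Schwann-like values was not tested.

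**Figure D4:**
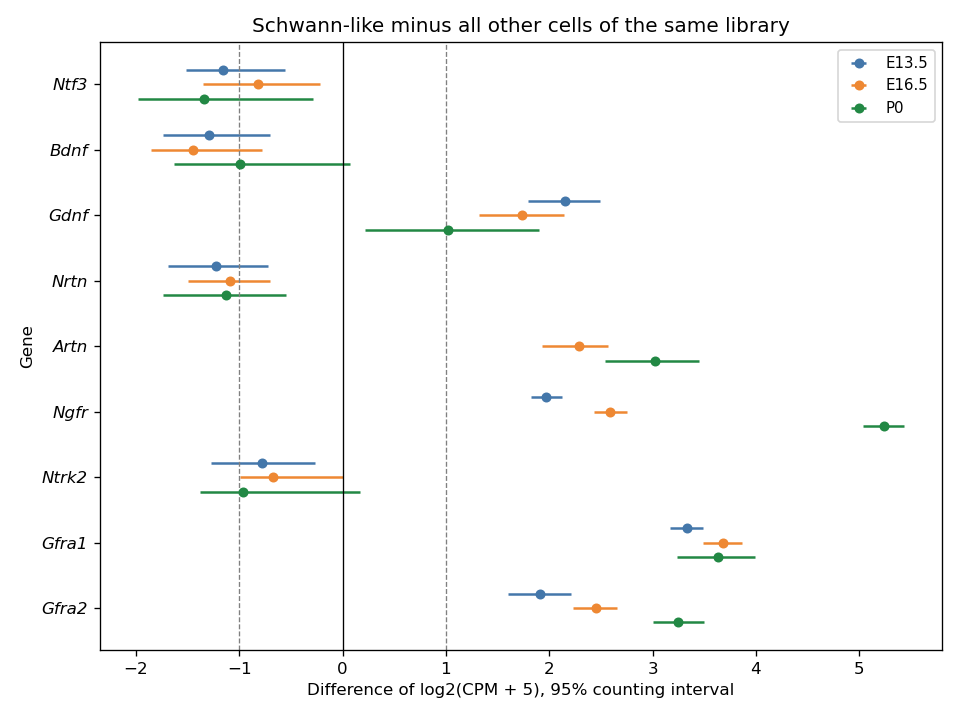
Difference of log2(CPM + 5) (x axis) between Schwann-like and all other cells of the same library for the members (y axis) with at least 20 UMIs, coloured by stage. Bars are 95% counting intervals and dashed lines mark differences of 1 in size. Gdnf, Ngfr, Gfra1 and Gfra2 lie above 1 at each stage (the P0 value of Gdnf is 1.02), and Nrtn lies below -1.

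Cell counts behind these sums were read on cells thinned to 3400 UMIs each, which left out no cell. Ngfr was then seen in 49.3% of Schwann-like cells at E13.5 (41.2 to 57.6), 56.9% at E16.5 (47.1 to 66.3) and 71.1% at P0 (61.1 to 79.9), and with all UMIs in 74.3%, 91.7% and 80.4%. The median cell of these groups had 8946, 10604 and 4981 UMIs. In endothelial-like cells, which had medians of 7575.5, 16540 and 9708.5 UMIs, the thinned shares were 8.9%, 0.57% and 0 of 268 cells (at most 1.37% by the interval). The 21.5% of other dermal-like cells at E13.5 (38.4% unthinned) lies above the endothelial share of that library, which may not be its highest background. In summed UMIs, erythroid-like, mast-like and muscle-like cells of E13.5 had more Ngfr (48.7, 51 and 45.6 CPM) than endothelial-like cells (24.3 CPM). Immune-like, other epithelial-like and suprabasal-like cells had less (9.12, 22.6 and 12.5 CPM). Dermal markers summed to 6984 CPM in erythroid-like, 3611 in mast-like, 2735 in muscle-like and 2927 in endothelial-like cells, against 9591 CPM in other dermal-like cells. The part of free RNA in the dermal share was not tested. Gfra1 was seen in 50.7%, 47.7% and 24.7% of thinned Schwann-like cells and in 3.4%, 1.42% and 0.746% of endothelial-like cells, and without thinning in 72.4%, 78% and 33% of Schwann-like cells. For Gfra2 the thinned shares were 10.5%, 40.4% and 53.6% (33.6%, 71.6% and 69.1% unthinned), with at most 1.57% in endothelial-like cells. Nrtn was seen in 57.2% of thinned DC-like cells (52.5 to 61.7, and 77.5% unthinned), 16.47% of other dermal-like and 1.42% of endothelial-like cells of E16.5.

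Levels were compared between stages in Schwann-like cells, whose clusters led with their own markers at all 3 stages, and in epithelial-like cells. From E13.5 to E16.5, 7.15% of 9686 genes differed by at least 1 in Schwann-like cells and 3 of 6 tested members did, all higher at E16.5. They were Artn (2.21, 1.5 to 2.41), Gfra2 (1.37, 1.01 to 1.73) and Nrtn (1.12, 0.47 to 1.74), the last 0.70 with 3000 variable genes. From E16.5 to P0, 13.6% of 8536 genes differed and 2 of 6 tested members did, Artn higher (1.33, 0.68 to 1.97) and Gdnf lower (-1.42, -2.29 to -0.38). Gfra2 (0.88), Ngfr (0.83) and Gfra1 (-0.96, -1.4 to -0.54) fell short of 1 with intervals that exclude 0, and Gfra1 passed it when cells were weighted equally (-1.20). The members' medians were 0.62 and 0.51 in these stage comparisons, against -0.04 and -0.12 over all genes tested. Among the leading genes of the Schwann-like clusters were Sox10 and Ednrb at E13.5, Gfra3 and Fabp7 at E16.5 and the myelin gene Mbp at P0. Dissociation response genes summed to 435, 1323 and 2964 CPM in these cells, epithelial markers to 48.4, 2313 and 709 CPM, dermal markers to 3374, 7655 and 8941 CPM and globins to 4499, 1023 and 4973 CPM, and their part in the stage values was not tested.

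In epithelial-like cells 9.64% of 12255 genes differed between E13.5 and E16.5, and 2 of 6 tested members did. Both were lower at E16.5, Nrtn by -2.01 (-2.17 to -1.84, from 187 to 42.7 CPM) and Ngfr by -1.45 (-1.8 to -1.07, from 20.1 to 4.2 CPM), and Ngfr was at -0.86 with at least 2500 genes per cell. Of the 51 Ngfr UMIs at E13.5, 28 were in 37 cells led by Nr2f1, Samd4 and Nfix. Between E16.5 and P0, 5.94% of 12999 genes differed and 1 of 8 tested members did, Nrtn, which was higher at P0 by 1.14 (1.02 to 1.26, 0.93 with 3000 variable genes). The members' medians were -0.24 and -0.08, and those of all genes tested -0.19 and -0.07. Different sub-clusters held most of these cells at each stage. Groups named suprabasal-like were present at E13.5 and P0, periderm-like at E16.5 and follicle or matrix-like from E16.5 on. The periderm-like group of E16.5 had suprabasal markers raised as well, so suprabasal cells may not be limited to E13.5 and P0. The E13.5 sub-clusters of 42 and 40 cells, highest in Nrtn at that stage, also had periderm markers raised. They were counted as other epithelial-like, so periderm cells are not limited to E16.5. Counted with the class were 1 sub-cluster at E16.5 and 2 at P0 that held more globins than epithelial markers among their leading genes.

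A list of 25 further genes of these pathways (ligands, receptors, co-receptors and adaptors) gives the setting. Ret, the kinase for all Gdnf family ligands, had 11, 13 and 40 UMIs in the libraries and 0 in Schwann-like cells at each stage, with exact intervals up to 2.23, 2.67 and 6.38 CPM. Of its 40 UMIs at P0, 18 were in endothelial-like cells. Ncam1, the other signalling partner, was common, with 12034, 7402 and 5917 UMIs, and Schwann-like cells had 170, 149 and 128 CPM. Gfra3, the preferred co-receptor of Artn, had 259, 504 and 710 CPM in Schwann-like cells, which held 90.3% of its UMIs at P0, and Artn was highest in the same group. Ntrk3, the Ntf3 kinase, had 9.08, 37 and 41.5 CPM in Schwann-like cells. Ntf5, the other Ntrk2 ligand, was epithelial, with 28.9, 19.5 and 30.9 CPM in other epithelial-like against 3.02, 1.92 and 2.04 CPM in other dermal-like cells.

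Of the list, 3, 7 and 9 genes differed by at least 1 between Schwann-like and other cells at the 3 stages, of 23, 22 and 21 tested, where 6.11%, 8.89% and 14.3% of all genes did, with Gfra3 (4.06, 6.39 and 6.91) and Sdc3, a heparan sulphate carrier (1.94, 3.22 and 3.34), among those higher at each. In dermal-like against epithelial-like cells 9, 5 and 7 did, of 20, 20 and 19 tested, against 14.2%, 15.7% and 17.1% of all genes. Ntf5 was the only one on the epithelial side at each stage (-1.87, -1.8 and -2.17), and Ncam1, Maged1, Sorcs2 and Gfra4 were on the dermal side each time. In DC-like cells 1 of 20 was past 1 (5.51% of all genes), Nradd, a relative of Ngfr, at 107 against 35.7 CPM (1.46, 1.31 to 1.61). In DP-like cells 5 of 17 were (14% of all genes), Sdc3 (2.11), Dok4 (1.52) and Sort1 (1.17) higher and Sorcs2 (-1.06) and Gfra4 (-1.01) lower. Epithelial-like cells had 3 of 17 and 2 of 18 past 1 in the stage comparisons (9.64% and 5.94% of all genes), all lower at the later stage, and Schwann-like cells had 2 of 16 from E13.5 to E16.5 (7.15% of all genes), Ntrk3 (1.58) and Sorcs1 (1.59), and 0 of 14 from E16.5 to P0 (13.6%). The list's median was between -0.22 and 0.23 in these comparisons other than that of dermal-like with epithelial-like cells at E13.5, where it was 0.77.

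Likeness of pattern was read as the Pearson correlation of log2(CPM + 5) over the 36 groups of at least 30 cells, which share libraries and depth, and it is given as a description. Among all genes with at least 200 UMIs, Ngfr and Gfra1 were each other's nearest (r = 0.91), followed for both by Mgat3. Gfra2 was nearest to Matn2 (0.88), Gdnf to Mmp17 (0.87) and Artn to Sema3b (0.86) with the myelin genes Mbp and Prx close behind (0.85). Ntrk2 was nearest to Gstt1 (0.85), Bdnf to Plekhh2 (0.77), Ntf3 to Cpne5 (0.76) and Nrtn to Rarg (0.74). Between members, Gdnf with Gfra1 (0.79), Ngfr with Gfra2 (0.75) and Ntf3 with Nrtn (0.65) were the next highest for their genes. Ranks in place of values kept 7 of the 27 nearest genes, so most of these names rest on the scale.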

How the data were processed

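The authors counted UMIs with Cell Ranger 2.2.0 (per the submitters' processing notes) on mm10 and deposited 1 table of natural log values, which were found to be ln(1 + UMIs scaled to 10000 per cell). Before deposit the authors dropped cells below 1750 genes and genes found in fewer than 3 cells. The log was undone: all 48197283 values above 0 gave whole UMIs within 0.001. Each library was clustered alone (scanpy 1.11.5, leidenalg 0.10.2, Python 3.11.15; 2000 variable genes without members and pathway genes, 30 components, 15 neighbours, resolution 1), and dermal-like and epithelial-like cells were clustered again. A cluster took the class whose markers were highest over the 25th percentile of clusters, with at least 3 markers 1 log2 unit above it and 10 added to each CPM. Clusters with a second class close behind (457, 169 and 136 cells) were left as mixed, and epithelial sub-clusters led by another class's markers, globins left out, as unnamed (148 cells at E13.5, 68 at P0). These naming steps were set after clusters had been seen. Doublets called by Scrublet were kept (0, 84 and 106 cells); at E13.5 the caller did not work.

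UMIs were summed per group, and 5 CPM was added before log2. Text names every member, a pathway list of 25 genes and the 3 genes nearest each member in pattern; sub-clusters were chosen after their values were seen. The fold rule was tested on simulated data. Some genes of the pathway list are counted but not reported here by name. Members and lists were chosen with earlier results of these data known. Positions are from GENCODE vM21 (GRCm38) and promoters from RefSeq (GRCm38.p6).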

Additional observations from a re-analysis of the deposited data

Results flagged for a closer look

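Nrtn differed between dermal-like and epithelial-like cells in opposite directions at 2 stages. Dermal minus epithelial, the log2 difference was -2.72 at E13.5, from 24.1 and 187 CPM, and 1.07 at E16.5, from 95 and 42.7 CPM. With 1 library per stage this change of side was not tested. At P0 the difference was -0.42 (-0.52 to -0.32). At E16.5, 1621 of the 3428 dermal-like Nrtn UMIs were in DC-like cells.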

How the results depend on the processing

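Of 1089 recomputed member differences, 1014 stayed on the same side of 1 in size, where a change of sign below 1 was not counted. Of the rest, 34 fell below 1, 40 passed it and 1 reversed (Ntrk2 in E13.5 Schwann-like cells, 1.16 with cells gated on markers and no clustering). The cause was not tested. The gate kept the highest group of 4 of 9 members. Nrtn moved to E13.5 periderm-like, Ntf3 to E16.5 cartilage or tendon-like and Ntrk2 to P0 adipocyte-like cells. Gdnf and Gfra1 moved to E16.5 Schwann-like cells. The 8 DC-like cells of the gate were too few to be ranked. With the gate, members past 1 between dermal-like and epithelial-like cells became 1 of 4 at E13.5 and 3 of 6 at E16.5. For epithelial-like cells from E16.5 to P0 there were 2 in place of 1. Adding 1 CPM gave 7 in place of 4 (dermal against epithelial, E13.5), 5 in place of 3 (DP-like), and 4 in place of 2 and of 1 (epithelial-like stages), while 10 CPM gave 2 in place of 6 (dermal against epithelial, E16.5) and 4 in place of 7 (Schwann-like, E13.5). With 2500 genes per cell 1 in place of 2 epithelial-like members passed from E13.5 to E16.5, and with 3000 variable genes 0 in place of 1 from E16.5 to P0. Without thinning the Ngfr shares were 74.3%, 91.7% and 80.4% in place of 49.3%, 56.9% and 71.1%, and Spearman ranks shared 7 of 27 nearest genes. Counting the unnamed cells as epithelial-like, added after seeing the data, lowered Bdnf at E13.5 to 0.84. With 2500 genes per cell the P0 Schwann-like group had 29 cells, and the gate left 8 DC-like and 28 DP-like cells, so these were not run. No paired analysis was possible because each stage is 1 library. Depth limits Artn, Gdnf and Ret most.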
